A study of Mus musculus with 4 samples.

Results

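T cell receptor alpha and beta V segments were taken as every transcript cluster of the array whose single gene symbol begins with Trav or Trbv. This gave 106 segments of 30176 genes, 85 of the alpha chain and 21 of the beta chain. All 106 were found in RefSeq (assembly GRCm38.p6), which places the alpha segments on chromosome 14 and the beta segments on chromosome 6 and annotates 6 of them as pseudogenes. A further 22 clusters carried a Trav or Trbv symbol beside another symbol and were kept apart.

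RNA came from splenocytes of 3-week-old DBA/1 mice, before any arthritis was induced. The dams received benzyl butyl phthalate (BBP, a plasticizer) in their drinking water through pregnancy and lactation, or no BBP. The BBP pools held 6 females and 4 males and the control pools 12 females and 4 males, and each pool was measured on 1 array, so no value has a replicate within its sex. The sources used here do not give the litters, so litter and exposure cannot be told apart.

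The T cell receptor is a pair of chains, each of which begins with a variable domain. The gene of the alpha chain is assembled in the thymus by joining a V to a J segment, and that of the beta chain by joining a V, a D and a J segment, after which the chain is carried on the cell surface with the CD3 proteins. A mature T cell uses, as a rule, a single rearranged V segment of the beta chain, so the signal of a V segment in spleen RNA reflects how many T cells use it and how much receptor RNA each holds. In these bulk samples fewer T cells and less RNA per cell cannot be told apart.

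Whether a segment was measured above background was judged from the 5222 negative control features of the array. Their median signal was 64.1 for BBP females, 56.9 for control females, 56.6 for BBP males and 51.1 for control males. Their 95th percentile was 904.23, 671.2, 847.19 and 673.03 in the same order. Both BBP pools were thus above both control pools in the upper tail of the negative controls, and the BBP pool was above the control pool of its sex at the median. The upper limit used here was the geometric mean of the 4 percentiles, 767.0, and the lower limit that of the 4 medians, 57.0. The upper tail of the negative controls reached high signals, with a 99th percentile of 11800.1 in geometric mean. T cell markers lay on both sides of the upper limit. Thy1 was below it at 478.8, 391.5, 355.0 and 391.4, and Cd3e was above it on each array. A segment below the upper limit is therefore not shown to be absent.

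Above the upper limit were 2 of 85 alpha segments, Trav6n-6 and Trav13n-4, and 3 of 21 beta segments, Trbv13-2, Trbv20 and Trbv3, against 4268 of all 30176 genes. The segments nearest to that limit on the other side were Trav16d-dv11, with a geometric mean signal of 687.7, Trbv29 with 644.8 and Trbv12-2 with 607.3. Above the lower limit were 59 alpha and 16 beta segments, with Trav9n-1 (61.2) just inside and Trav4d-2 (52.2) just outside. Of all genes, 41.7% passed the lower limit. On none of the 4 arrays did 21 alpha and 4 beta segments exceed the median of the negative controls, among them Trav18 and the pseudogene Trbv10. All 5 Trav8 and all 3 Trav10 segments were below the lower limit.

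Throughout, signals are given in the order BBP female, control female, BBP male and control male pool. They are arbitrary units of different probes, so they are compared between pools and not between segments.

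The alpha segments had, on the median, the higher signal in the BBP pool of both sexes. The beta segments did so in females, and their male median was near 0. Among segments above the upper limit the median log2 of BBP over control was 0.48 for alpha in the female and 0.65 in the male pair (n = 2), and 0.60 and 0.01 for beta (n = 3). The median of all 4268 genes above that limit was -0.17 and -0.16. Among segments above the lower limit the alpha median was 0.50 in the female and 0.34 in the male pair (n = 59), and the beta median 0.37 and -0.03 (n = 16), beside -0.08 and -0.13 for all 12588 genes. The male beta median of -0.03 became 0.12 when each array was scaled to a common median. The lower and upper quartiles of the alpha segments were 0.34 and 0.70 in females and 0.11 and 0.50 in males. Those of the beta segments were 0.25 and 0.79 in females and -0.27 and 0.25 in males. With all 106 segments and no limit, the alpha median was 0.43 and 0.23 and the beta median 0.30 and 0.05.

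The beta median minus the alpha median was 0.12 in the female and -0.63 in the male pair above the upper limit, and -0.13 and -0.38 above the lower limit. It was -0.13 and -0.19 without a limit. The beta segments were therefore lower than the alpha segments in the male pair at each of these limits and without one, while in the female pair the sign depended on the limit. These differences have no test, since segments measured in the same library are not replicates.

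**Figure D1:**
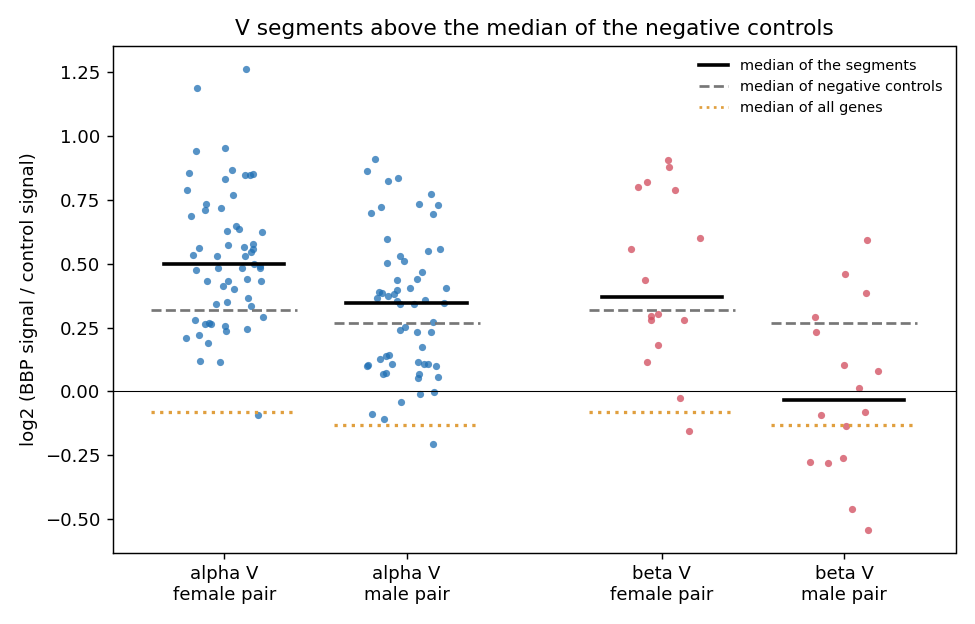
Log2 of BBP over control signal (vertical axis) for the 59 alpha and 16 beta V segments above the lower limit, by chain and pool pair, with each point a segment. Black bars are the segments' medians (0.50 and 0.34 for alpha, 0.37 and -0.03 for beta), dashed lines the median of negative control features above the same limit and dotted lines that of all genes above it.

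The negative control features moved in the same direction as the alpha segments. Over the 2576 negative controls above the lower limit, the median log2 of BBP over control was 0.32 in the female and 0.27 in the male pair. The alpha median was 0.18 above that in females and 0.08 in males. The beta median was 0.05 above it in females and 0.30 below it in males (a difference of -0.30). The negative control median was exceeded by 45 of 59 alpha and 8 of 16 beta segments in females, and by 33 and 4 in males. By the definition of a median, about as many negative controls lie above it as below it in each pair. In both pairs 27 alpha and 4 beta segments exceeded it. Without a share of all genes or negative controls, these 2 counts cannot be called many or few. The share of the negative controls that did so is not given. Their lower and upper quartiles were -0.23 and 0.87 in females and -0.39 and 0.85 in males. Above the upper quartile were 4 of 59 alpha and 2 of 16 beta segments in females, and 2 and 0 in males. Below the lower quartile were 0 alpha segments in either pair, and 0 beta segments in females and 2 in males. Clusters with no symbol above the lower limit had medians of 0.25 and 0.20, protein-coding genes -0.05 and -0.15. The array's positive control features above that limit had -0.13 and -0.39. The negative controls' part in the alpha shift was not tested.

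Direction was shared by both sexes in most alpha segments and in few beta segments. Above the lower limit 52 of 59 alpha and 6 of 16 beta segments had the higher signal in the BBP pool of both pairs, beside 21.3% of all genes and 41.7% of the negative controls above that limit. Lower in both pairs were 0 alpha and 0 beta segments, beside 48.8% of all genes. A further 6 alpha and 8 beta segments were higher with BBP in females and lower in males, beside 2254 of all 12588 genes. The reverse held for 1 alpha and 2 beta segments, beside 1423 genes. Both BBP pools lay above both control pools in 35 of 59 alpha segments and 2 of 16 beta segments, Trbv20 and Trbv29, beside 13.6% of all genes and 30.5% of the negative controls above that limit.

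**Figure D2:**
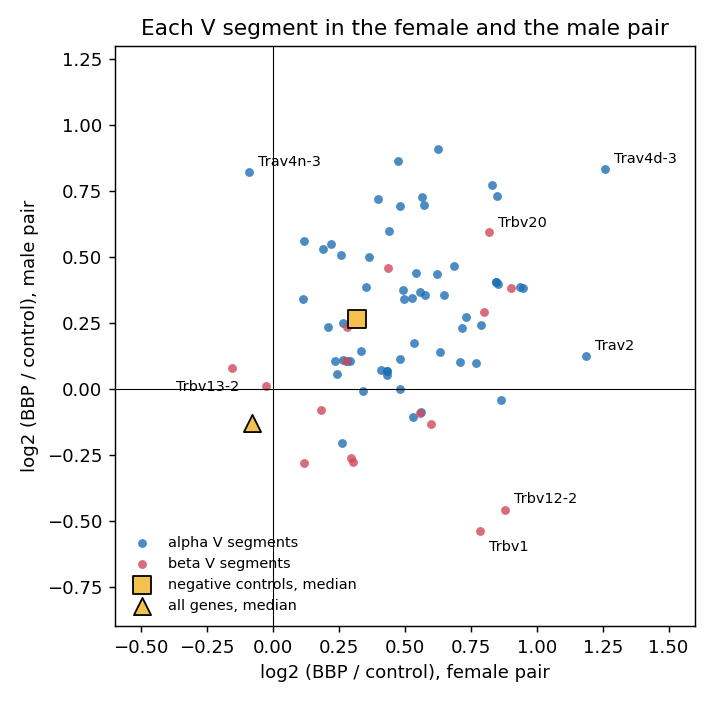
Log2 of BBP over control in the female pair (horizontal axis) against the male pair (vertical axis) for the 59 alpha and 16 beta V segments above the lower limit, each point a segment. The square marks the median of the negative controls and the triangle that of all genes. Alpha segments fill the upper right quadrant (52 of 59), while 8 beta segments lie in the lower right one.

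The size of a segment's difference in females said little about its size in males. Across the 59 alpha segments Pearson's r between both pairs was 0.10, and across the 16 beta segments it was also 0.10. All points of a pair share its 2 libraries, and duplicated segments share sequence.

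No segment reached, in both sexes, the fold by which the study had called genes. Above the upper limit 0 of 5 segments were at least 2-fold higher in both pairs, beside 0.281% of all genes, and 0 were at least 2-fold lower in both, beside 0.679%. At least 2-fold higher in both pairs were 0 of 75 segments above the lower limit, beside 1.05% of all genes, and at least 2-fold lower in both were 0, beside 0.469%. In a single pair, Trav2 and Trav4d-3 were at least 2-fold higher in females (1.52% of all genes) and 0 segments in males (2.3%). At least 1.5-fold higher in both pairs were 4 alpha segments, Trav4d-3, Trav5-4, Trav6n-6 and Trav7d-2, and 1 beta segment, Trbv20, beside 2.49% of all genes. The 2 of these above the upper limit were Trav6n-6 and Trbv20, where 1.1% of all genes did so.

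In limma with Benjamini-Hochberg adjustment, 0 of 5 segments were called among the 4268 genes above the upper limit, and 0 genes of any kind in either direction. At an unadjusted p under 0.05, 1 alpha and 1 beta segment were higher in the BBP pools, beside 3.77% of all genes. Trav6n-6 had a log2 difference of 0.79 (SE 0.12) with a limma adjusted p = 0.1015, and Trbv20 one of 0.71 (SE 0.13) with a limma adjusted p = 0.1117. Among the 12588 genes above the lower limit, limma called 168 genes higher (1.33%) and 117 lower (0.929%), with 0 of 75 segments among them. The segments with the smallest adjusted p in that limma fit were Trav7d-2 (0.80, SE 0.12, adjusted p = 0.0549) and Trav4d-3 (1.05, SE 0.17, adjusted p = 0.0561). At an unadjusted p under 0.05, 30 of 59 alpha and 4 of 16 beta segments were higher, beside 6.43% of all genes, and 0 segments were lower. These counts became 15 and 0 without the sex term, beside 4.09% of all genes. With that term dropped and 1 pool left out, 1 exposure was left with a single array. The counts at an unadjusted p then differed with the pool left out, and are not given. With quantile normalization, without the sex term or with any 1 pool left out, 0 genes were called at the lower limit.

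Among alpha segments with a known role, Trav11 itself had no cluster of its own, and its duplicated copies Trav11d and Trav11n were measured. Trav11 forms the invariant alpha chain of natural killer T cells, which recognise lipids on CD1d. Trav11d had signals of 702.8, 499.8, 573.5 and 442.4, and Trav11n of 656.5, 472.9, 705.1 and 387.9. In both copies the BBP pools were above both control pools. The log2 of BBP over control was 0.49 in females and 0.37 in males for Trav11d, and 0.47 and 0.86 for Trav11n. Trav1, used by the invariant alpha chain of mucosal-associated invariant T cells, had 169.4, 141.8, 146.9 and 103.3 (0.26 and 0.51), with a small gap between the BBP male and the control female pool. Zbtb16, the transcription factor of both of these cell types, was at 69.0, 59.2, 64.8 and 61.5, close to the lower limit, and the natural killer receptor gene Klrb1c was below it in geometric mean.

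Of the other alpha segments, Trav6n-6 had signals of 1797.9, 997.5, 1169.0 and 704.0. Its BBP pools were above both control pools, and the log2 was 0.85 in females and 0.73 in males. Trav13n-4 had 1011.5, 932.4, 1239.8 and 841.7, again without overlap, but its female difference of 0.12 was small beside its male difference of 0.56. Trav16d-dv11, a segment that can be joined in alpha and in delta chains, had 1167.9, 785.5, 629.0 and 387.7. Here the difference was 0.57 and 0.70, and the control female pool was above the BBP male pool, so the exposures overlapped across sexes.

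Beside Trav6n-6, the largest mean differences among the alpha segments above the lower limit were those of Trav4d-3, Trav7d-2 and Trav5-4, none of which passed the upper limit. Trav4d-3 had 122.9, 51.3, 105.8 and 59.3, a log2 of 1.26 in females and 0.84 in males, and its value in the control female pool fell short of the 56.9 of the negative controls there. Trav7d-2 had 192.5, 108.2, 149.5 and 87.5 (0.83 and 0.77), and Trav5-4 had 143.5, 93.0, 141.1 and 75.2 (0.63 and 0.91). In all 3 the BBP pools were above both control pools. Trav7d-2 and Trav5-4 each also share a cluster with a near copy, which was not counted here, and signal from near copies cannot be assigned to 1 of them with certainty. With 50 added to each signal, the mean log2 over both pairs was 0.64 for Trav4d-3 in place of 1.05.

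Some alpha segments differed between the sexes. Trav2 had 124.2, 54.6, 77.1 and 70.7, that is 1.19 in females and 0.13 in males. Its control female value was below the 56.9 of the negative controls there. Trav7-1 had 389.6, 213.9, 181.6 and 186.9, with 0.87 in females and -0.04 in males. Trav4n-3 was the only alpha segment above the lower limit with a lower signal in the BBP female pool, at 76.1, 81.1, 98.7 and 55.8 (-0.09 and 0.82). Each of these rests on 1 array per pool.

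**Figure D3:**
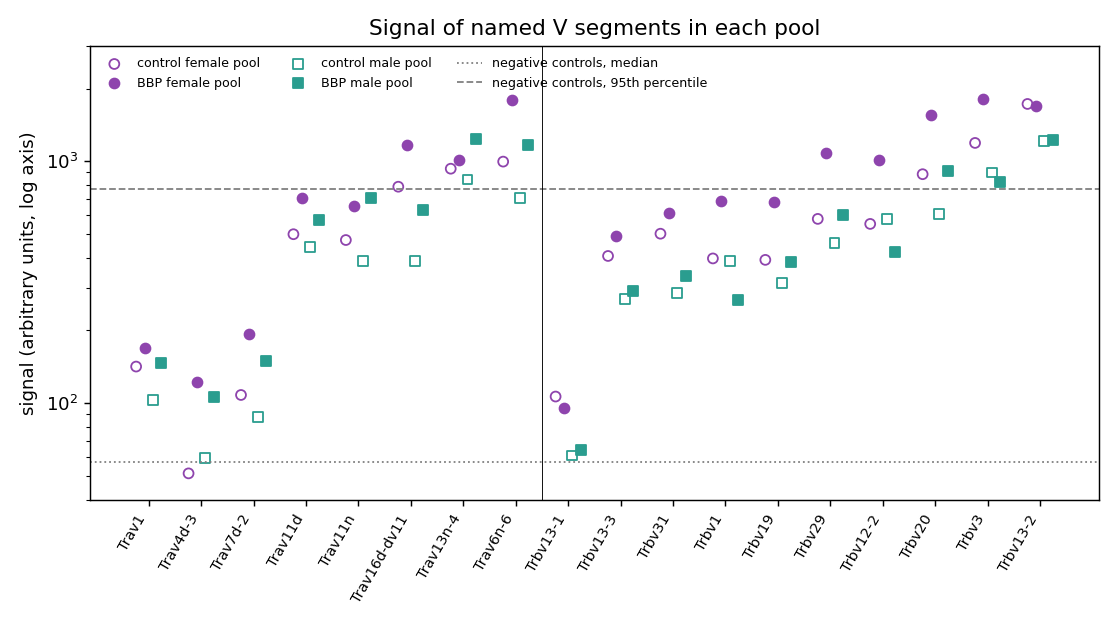
Signal in arbitrary units (vertical log axis) of 18 named V segments in the 4 pools, alpha on the left of the line and beta on the right. Filled symbols are BBP pools, open symbols control pools, circles females and squares males, and horizontal lines mark the median and the 95th percentile of the negative controls. Trav6n-6, Trav13n-4, Trav11d and Trav11n have both filled symbols above both open ones, while Trbv1 and Trbv12-2 have the filled symbol above the open one in females and below it in males.

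Beta segments with a known role behaved less alike. Natural killer T cells pair their alpha chain mostly with Trbv13, Trbv29 or Trbv1, and Trbv13-2 is also the segment of many collagen-reactive T cells in arthritis models. Trbv13-2 had signals of 1695.3, 1727.0, 1228.5 and 1218.0, a log2 of -0.03 in females and 0.01 in males, so that its female pools were above its male pools at either exposure. Trbv13-3 had 492.7, 406.3, 290.1 and 269.7 (0.28 and 0.11). Trbv13-1 had 95.7, 106.6, 64.3 and 60.8 (-0.16 and 0.08). In all 3 members of the Trbv13 family the pools of both exposures overlapped, and the family median was -0.03 in females and 0.08 in males, or 0.13 and 0.27 with each array scaled to a common median.

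Trbv29, which RefSeq annotates as a pseudogene, had 1081.7, 578.3, 600.3 and 460.3. The log2 was 0.90 in females and 0.38 in males, and the BBP male pool exceeded the control female pool only narrowly. Trbv1 had 684.3, 396.9, 266.9 and 388.0, with 0.79 in females and -0.54 in males. Its BBP female pool was the highest and its BBP male pool the lowest of the 4. Trbv31, which lies in inverted orientation behind the constant regions, had 610.3, 502.2, 336.6 and 286.3 (0.28 and 0.23), and both female pools were above both male pools.

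Trbv20 was the beta segment that was at least 1.5-fold higher in both pairs. Its signals were 1561.7, 884.9, 911.5 and 603.9, with 0.82 in females and 0.59 in males. Trbv3 had 1806.6, 1191.7, 819.6 and 899.0 (0.60 and -0.13), and Trbv12-2 had 1013.2, 551.3, 420.8 and 578.8 (0.88 and -0.46). In Trbv3 and Trbv12-2, as in Trbv1, the pool of BBP males was the lowest of the 4. Trbv19 had 681.2, 391.5, 383.0 and 313.2 (0.80 and 0.29) and Trbv2 had 293.1, 216.9, 195.8 and 142.6 (0.43 and 0.46), in both of which the control female pool was above the BBP male pool.

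The median difference between the sexes was larger over the beta than over the alpha segments, and was not tested. The median log2 of the control female over the control male pool was 0.19 for the 59 alpha and 0.37 for the 16 beta segments, beside -0.02 for all genes and 0.10 for negative controls. Between the BBP pools it was 0.40 for alpha and 0.84 for beta, beside 0.04 and 0.18. The BBP female pool had the higher signal in 16 of 16 beta and 49 of 59 alpha segments, beside 7148 of all 12588 genes. The control female pool had it in 13 of 16 and 47 of 59, beside 5765 genes. The summed signal of the 16 beta segments was 11224.2, 7923.6, 6248.0 and 6055.5, and that of the 59 alpha segments 18143.3, 12523.3, 13554.8 and 10454.1. In the beta sum the BBP female pool was the highest, with smaller gaps among the other 3.

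The alpha families differed in their medians. Above the lower limit the Trav7 family had 0.85 in females and 0.39 in males (n = 8), Trav6 had 0.78 and 0.38 (n = 4) and Trav4 had 0.77 and 0.72 (n = 5). Trav9 was at 0.56 and 0.37 (n = 9). Trav12 with 0.48 and 0.11 (n = 5) and Trav14 with 0.42 and 0.07 (n = 6) were above the negative control median in females and below it in males. The Trav13 family, with 11 segments, had 0.26 and 0.25, below the negative control median in both pairs. Segments of a family are similar in sequence and were measured in the same libraries, and 3 sets of 2 alpha segments had identical values in all pools, so these medians have no test.

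**Figure D4:**
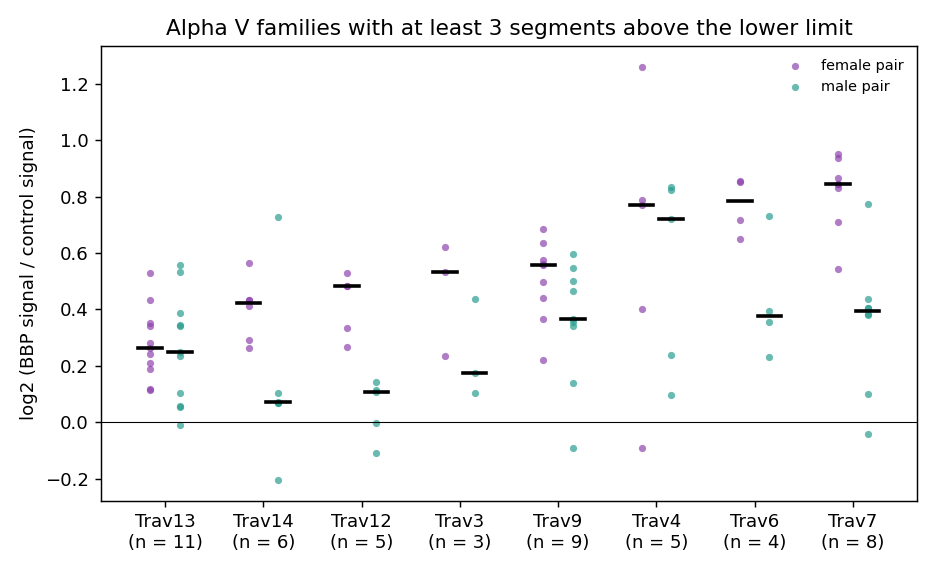
Log2 of BBP over control (vertical axis) for alpha V families with at least 3 segments above the lower limit, each point a segment in the female or male pair, with black bars for the family median. Families are ordered by their female median, from Trav13 (0.26) to Trav7 (0.85).

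The alpha locus of the reference mouse holds duplicated blocks, whose segments carry a d or an n in their names. The copies were alike in the female pair. Above the lower limit the median was 0.54 in females and 0.23 in males for the 19 segments without such a letter, 0.49 and 0.38 for the 20 d copies, and 0.49 and 0.34 for the 20 n copies.

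The 22 clusters with several symbols were described apart. No limit was applied to them. The median of the 20 alpha clusters was 0.43 for females and 0.19 for males, with 11 of 20 higher in both pairs. In 7 of 20 both BBP pools were above both control pools. Without a limit, 33.5% of all genes and 34.2% of the negative controls were higher in both pairs. Both BBP pools were above both control pools in 23.5% and 24.3%. The cluster of Trav7-2 and Trav7d-2 was at 0.25 and -0.37, where that of Trav7d-2 alone was at 0.83 and 0.77. The shared cluster had a geometric mean signal of 34.3, below the lower limit. The cluster of Trav5-4 and Trav5d-4 was at 0.62 and 0.92, and that of Trav5-4 and Trav5n-4 at 0.84 and 0.72. That of Trav5-4 alone was at 0.63 and 0.91. The median of the 2 beta clusters was 0.98 and -0.23.

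The J segments of the alpha chain join to its V segments. Of 18 measured Traj segments 12 were above the lower limit, with a median of 0.56 in the female and 0.41 in the male pair, and in 8 of the 12 both BBP pools were above both control pools (13.6% of all genes and 30.5% of the negative controls). The V segments of antibody genes are rearranged by B cells. Ighv segments had medians of 0.10 and 0.32 (n = 102) and Igkv segments of 0.32 and -0.15 (n = 81). Higher with BBP in females and lower in males were 51 of the 81 Igkv and 8 of the 16 beta segments. Of all 12588 genes above the lower limit 2254 were so.

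The constant regions of the receptor chains had no cluster with a single symbol, so the receptor's partners stand beside the V segments. Cd3e, a signalling chain of the receptor complex, had 26464.2, 16262.2, 12460.8 and 11646.8, that is 0.70 in females and 0.10 in males. Cd3g had 0.23 and 0.18, and Cd3d 0.31 and -0.68. The coreceptor Cd4 had 17927.2, 9797.1, 9583.2 and 4616.1 (0.87 and 1.05), and Cd8b1, a chain of the coreceptor CD8, had 33501.2, 20570.8, 19265.3 and 11664.5 (0.70 and 0.72), while Cd8a had 0.48 and -0.01. Control females were above control males in Cd3e, Cd4 and Cd8b1 and below them in Cd3d (965.4 and 1591.5).

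Over the list of T cell markers, 12 of 15 genes were measured and 0 of them were below the lower limit. Their median was 0.50 in females and 0.10 in males, with 8 of 12 higher in both pairs and 1 lower in both, and their summed signal was 43701.2, 30627.3, 26286.8 and 25990.3. This sum, like those of the alpha and the beta segments, was highest in the BBP female pool, and Cd3e made up 26464.2 of it there. Markers of naive T cells had 0.53 and 0.31, with 3 of 5 higher in both pairs. Those of regulatory T cells had 0.48 and 0.31, with 3 of 3 higher in both. Of all genes above the lower limit 21.3% were higher and 48.8% lower in both pairs. B cell markers had -0.21 and -0.37, with 5 of 7 lower in both pairs, and natural killer cell markers -0.23 and -0.35, with 4 of 5. Myeloid markers had -0.56 and -0.36, with 4 of 5 lower in both, and erythroid markers -0.34 and -1.19, with 4 of 6. Neutrophil markers had -0.12 and 0.20, with 3 of 6 lower and 1 of 6 higher in both pairs. Of the markers of recombining thymocytes 6 of 7 were measured. The recombinase gene Rag2, the pre-T cell receptor gene Ptcra and Arpp21 were below the lower limit. The other 3 were above it, with a median of 0.11 in females and -0.16 in males, and 1 of 3 lower in both pairs. That 1 was Dntt, whose enzyme adds bases at the joints, with 133.7, 207.7, 178.3 and 237.8 (-0.64 and -0.42). Cd1d1 had 0.11 and -0.12, and Themis 0.27 and -0.16. The part of these cell types in the V segment values was not tested.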

How the data were processed

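RNA from pooled splenocytes of 4 sets of offspring was hybridised to 1 Clariom D mouse array each. Signals were read out and scaled by the authors with MAS 5.0, which the submitters' processing notes list as MAS5. What was deposited is 1 linear signal intensity per transcript cluster and array. The sources used here give neither the scaling target nor detection calls. Precision is limited by the number of arrays.

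The table holds 72688 features, of which 6732 are controls and 65956 are transcript clusters. Symbols came from the platform's annotation table. RefSeq (assembly GRCm38.p6) gave chromosomes and gene types. Of the clusters, 30638 carry 1 symbol, which gave 30176 genes, and 2176 carry several and were not used for genes. No segment had more than 1 cluster of its own. The upper limit is the geometric mean over the 4 arrays of the 95th percentile of the 5222 negative control features, and the lower limit is the same for their median. A segment's geometric mean signal over all 4 arrays was set against these limits, so BBP and control signals counted alike. A segment high in the BBP pools alone could still pass. The median of the negative controls was exceeded by 61 alpha segments in the BBP female and 60 in the BBP male pool. In each control pool 56 exceeded it. On each of the 4 arrays 52 alpha and 16 beta segments did so, and these alpha segments had medians of 0.49 in females and 0.34 in males. No pseudocount was added.

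The log2 of BBP over control was taken within each sex from the deposited intensities. Log2 intensities of all genes above a limit were tested in limma 3.58.1 under R 4.3.3, with terms for exposure and sex, variances moderated along a trend, and Benjamini-Hochberg adjustment over all of them at a threshold of 0.05. This fit has 1 residual degree of freedom. Medians over segments have no test, since segments of a library are not replicates. Other steps used Python 3.11.15, numpy 2.4.6, pandas 2.3.3 and matplotlib 3.10.9.

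The segments, the gene lists and the tests were chosen with earlier results of these data known. The named segments are those with a known role and, per chain, the 5 with the largest mean log2 in each direction and the same sign in both pairs, the 3 with the highest signals and the 3 with the largest difference between pairs. The upper limit was the one planned. The description at the lower limit, and its combination with other settings, was added after the data were seen. Alternatives were other limits, other scalings, 50 added to each signal, every cluster with 1 symbol, identical signals counted once, pseudogenes left out, a 1.5-fold limit, limma without a sex term, without a trend or with robust variances, and leaving out each pool.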

Additional observations from a re-analysis of the deposited data

Results flagged for a closer look

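In several results the female and the male pair moved in opposite directions. With 1 array per pool none of these differences between the sexes was tested. The beta segments above the lower limit had a median log2 of BBP over control of 0.37 in females and -0.033 in males. The beta median minus the alpha median above the upper limit was 0.12 in females and -0.63 in males. Among single beta segments, Trbv12-2 was at 0.88 and -0.46, Trbv1 at 0.79 and -0.54 and Trbv3 at 0.60 and -0.13. Trbv13-1 was at -0.16 and 0.081 and Trbv13-2 at -0.027 and 0.012. Among alpha segments, Trav7-1 was at 0.87 and -0.042 and Trav4n-3 at -0.092 and 0.82.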

How the results depend on the processing

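The labels give no replicate numbers, so the pools were paired by sex alone. A value was taken as moved when it changed by more than the SD of its female and male values, and a count when it changed over 1.5 times. By that measure 18 of the alternatives to the main results moved them, 166 stayed within it and 0 reversed a difference larger than that SD. The 166 do not measure stability, since some alternatives could not move a result. Above the upper limit no segment was a pseudogene, had an identical copy or had another cluster of its own. A common median cannot change the beta minus alpha difference. The limma calls, 0 in every setting, are also among the 166. Within that measure, the female beta median ranged from 0.30 with no filter to 0.76 above the upper limit with a common median. The beta minus alpha difference ranged from -0.13 to 0.13 in females and from -0.63 to -0.19 in males. Its negative values in females came from other limits or no filter. At the lower limit the alpha segments without overlap ranged from 27 to 45, and the male beta median from -0.08 to 0.12. How many segments count as measured depended on the limit most. Against 2 alpha and 3 beta segments above the upper limit, the median of the negative controls gave 59 and 16, the 99th percentile 0 and 0, and a minimum signal of 100 on at least 2 arrays 45 and 15, while 1 beta segment passed the upper limit on each of the 4 arrays. The 99th percentile left no segment for the medians. The alpha median above the upper limit became 0.64 in females and 0.83 in males with all arrays brought to a common median, and in males 0.34 at the lower limit, 0.36 with a minimum of 100 and 0.23 with no filter. The count of segments above the upper limit that were at least 2-fold higher in both pairs, which was 0, became 2 with a 1.5-fold threshold. At the lower limit the alpha medians became 0.37 and 0.23 with 50 added to each signal, and 0.50 in males with the common median. The 2 beta segments without overlap between exposures became 4 with the common median and 1 without pseudogenes. The common median moved that of all genes above the upper limit from -0.17 and -0.16 to -0.01 and 0.03. With each pool left out in turn, and the sex term with it, limma called 0 segments, which says nothing about stability, since 0 were called with all pools. The precision is limited by 4 arrays, by 1 residual degree of freedom and by signals near those of the negative controls.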
